A study of Mus musculus with 12 samples.

Results

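Complement genes of bone and bone marrow stroma were examined in 4 sorted mouse populations. The genes were C1ra, C1s1, Serping1, C4b, C2, C3, Cfb, Cfd and C7, which were taken by symbol from the Ensembl identifiers of the count files. These are 9 of 49585 genes in the files, and all 9 were among the 18648 genes tested, those that reached 0.5 CPM in 1 library or more (CPM is the read count scaled to library size by TMM).

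Complement is a cascade of plasma proteases and binding proteins. In the classical pathway C1q activates C1r and C1s, C1s cleaves C4 and C2, and the products form the convertase that cleaves C3. The alternative pathway builds its convertase from C3 and factor B with the help of factor D, and both routes lead to the terminal components, which assemble on membranes. Liver is the main source of the plasma proteins, and fibroblasts, adipocytes and macrophages also make some of them.

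All mice were wild-type male C57BL/6 animals aged 8 to 10 weeks, and every sample was labelled steady state. Each library was made from 2000 sorted CD45-Ter119-CD31- cells. Itga8+ MSCs (Itga8+Alcam+Sca-1-), Itga8-Alcam+ BLCs (bone-lining cells, labelled as osteoblasts and called BLCs) and Sca-1+ MSCs (Alcam-Sca-1+) came from bone fragments of femora, tibias and iliac bones digested with collagenase, and CD51+CD140a+ MSCs came from flushed marrow digested with Accumax. Tissue and digestion therefore cannot be told apart from population in any comparison with CD51+CD140a+ MSCs. There were 3 libraries of each population, and neither the labels nor the methods state that they came from separate animals, so the p-values measure the spread between these samples, which may be technical.

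The libraries held 17580677 to 31332475 counts. Gene positions are those of GENCODE M21 on GRCm38. Levels are given in CPM, in the order of replicates 1, 2 and 3, and 3 counts correspond to 0.082 to 0.18 CPM. Bglap, the osteoblast matrix gene, was at 1176 to 6983 CPM in BLCs and at most 14.96 CPM in the other libraries. Ly6a, which encodes Sca-1, was at 611 to 659 CPM in Sca-1+ MSCs and at most 35.7 CPM elsewhere, and Lepr was at 5727 to 6739 CPM in CD51+CD140a+ MSCs. Itga8 was at 35.2 to 199 CPM in Itga8+ MSCs and also at 53.1 to 82.9 CPM in CD51+CD140a+ MSCs, and Alcam was at 1.29 to 5.82 CPM in both Alcam+ sorts and at most 0.221 CPM elsewhere. The summed level of 12 myeloid and lymphoid markers was 857 to 8998 CPM in Itga8+ MSCs, 2248 to 3117 CPM in BLCs, 308 to 879 CPM in Sca-1+ MSCs and, at the lowest, 185 to 306 CPM in CD51+CD140a+ MSCs. Cd3e had no count, and Lyz2 reached 2969 CPM in Itga8+ replicate 2. The sort removed CD45+ cells, and the part of such RNA in the results was not tested.

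Some libraries of the Alcam+ sorts stood apart in transcript length. The median deviation of genes with exons of 5000 bases or more, minus that of genes under 1000 bases, was 0.59, -2.42 and 1.63 (log2, within population) in Itga8+ MSCs and 0.06, 1.51 and -1.41 in BLCs. It lay between -0.40 and 0.22 in the other 6 libraries. Itga8+ replicate 2 and Itga8-Alcam+ replicate 3 thus held the fewest reads of long transcripts, and C3 and C4b are the members with the longest exons. Libraries of the same population correlated at r of 0.691 to 0.926 in the Alcam+ sorts and 0.965 to 0.98 in the others. The fits used a shared estimate of the spread per gene over all populations, so the p-value of a pair also draws on the spread of the other populations.

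The 9 genes together were expressed mainly in Sca-1+ and CD51+CD140a+ MSCs. They took 0.0449% ± 0.0179 (SD, n = 3) of all counts in Itga8+ MSCs, 0.0289% ± 0.0144 in BLCs and 0.668% ± 0.083 in Sca-1+ MSCs. Their share was largest in CD51+CD140a+ MSCs, at 1.25% ± 0.0756. Serping1 alone made up 65.5% of the summed CPM in CD51+CD140a+ MSCs and 42.2% in Sca-1+ MSCs. In bulk libraries of sorted cells, fewer cells that express a gene and less RNA of it per cell cannot be told apart. A test of any difference among the 4 populations called all 9 genes, with edgeR adjusted p from 9.57e-08 for Serping1 to 0.0584 for Cfd, and 47.5% of all genes tested were called by it.

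**Figure D1:**
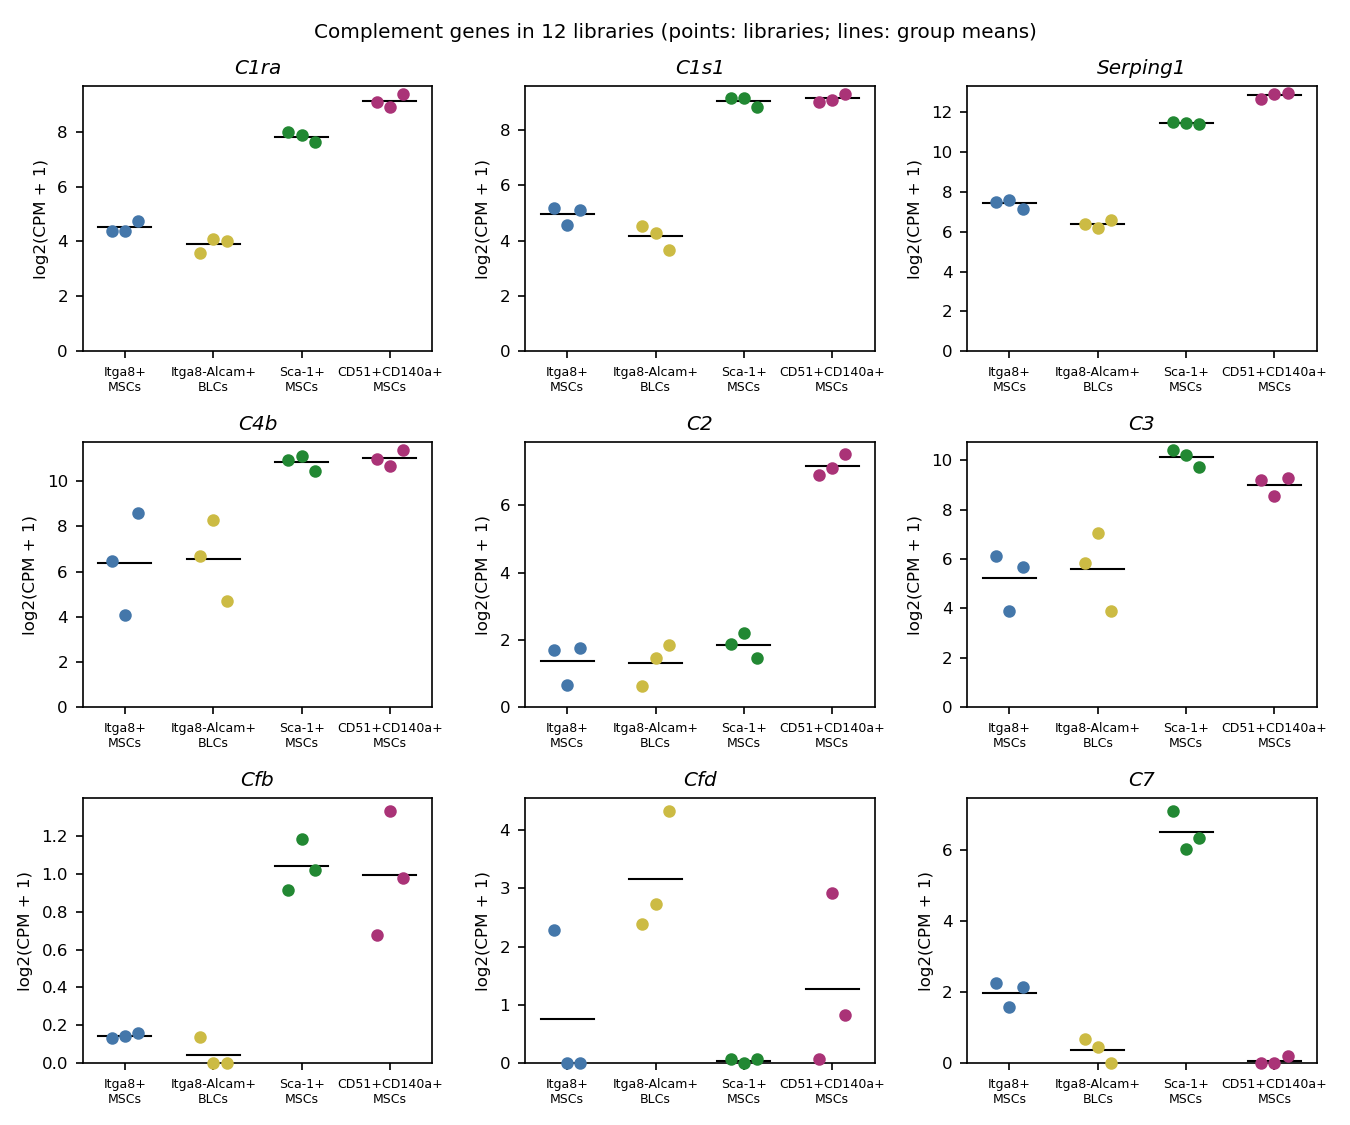
Level of each of the 9 complement genes, as log2(CPM + 1), in the 12 libraries of the 4 populations; points are libraries in the order of replicates and lines are means of the 3 log2 values, and the vertical scale differs between panels. C1ra, C1s1, Serping1, C4b and C3 were high in Sca-1+ and CD51+CD140a+ MSCs, C2 in CD51+CD140a+ MSCs and C7 in Sca-1+ MSCs, while Cfb was at most 1.52 CPM in any library.

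Of the 5 members with a promoter entry in RefSeq (C1ra, C1s1, C3, C7 and Cfd), those of C3, C7 and C1s1 held a match to a searched motif in the 250 bases before the start. C3 and C7 are shown because C3 is the component on which both pathways meet and C7 is the member with the largest fold difference between populations. Both windows are on the minus strand of GRCm38.p6 and are written 5′ to 3′. Capitals mark matches to TTGCNNAA (C/EBP site) in C3 at chr17:57228137-57228386, and to TTCNNNGAA (gamma-activated site) and TATAAA read on the other strand in C7 at chr15:5063774-5064023.
C3: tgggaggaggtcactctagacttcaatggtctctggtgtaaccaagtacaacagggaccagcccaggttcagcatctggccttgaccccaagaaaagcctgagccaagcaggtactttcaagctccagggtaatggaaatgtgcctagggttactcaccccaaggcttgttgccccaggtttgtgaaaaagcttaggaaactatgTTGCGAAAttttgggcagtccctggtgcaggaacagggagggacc
C7: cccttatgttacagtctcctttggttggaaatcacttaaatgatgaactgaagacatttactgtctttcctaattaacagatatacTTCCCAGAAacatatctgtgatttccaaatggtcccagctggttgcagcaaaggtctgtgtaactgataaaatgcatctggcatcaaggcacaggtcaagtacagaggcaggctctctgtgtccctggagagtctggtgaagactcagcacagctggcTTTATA

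The C3 match lay 38 to 45 bases before the start, and the C7 gamma-activated match 156 to 164 bases before it. C1s1 had a TTGCNNAA match 235 to 242 bases before the more upstream of its 2 starts. On either strand, TTGCNNAA was present in 9.56% of the 32851 windows of 250 bases in the table, TTCNNNGAA in 7.02% and TATAAA in 12.4%. GAAANNGAA (interferon response element), GGANTTTCC (NF-kappaB site) and GGGCGG (Sp1 box) were present in 7.13%, 1.07% and 32.7% of all windows and in no window of a member. A match describes the letters only. C4b, C2, Cfb and Serping1 had no entry.

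The proteases of the C1 complex and their inhibitor were low in both Alcam+ sorts. C1ra, which encodes the protease C1r (ENSMUSG00000055172, chr6:124512405-124523443), was at 20.0, 20.0 and 25.7 CPM in Itga8+ MSCs and at 11.0, 16.2 and 15.2 CPM in BLCs. It was at 251, 234 and 194 CPM in Sca-1+ MSCs and at 536, 474 and 661 CPM in CD51+CD140a+ MSCs. No 2 populations overlapped, and the order was CD51+CD140a+ MSCs, Sca-1+ MSCs, Itga8+ MSCs and BLCs. The last 2 were not called different (log2 fold change 0.63 ± 0.258 (SE), edgeR adjusted p = 0.323), whereas Sca-1+ MSCs were below CD51+CD140a+ MSCs by -1.30 ± 0.259 (adjusted p = 0.00375). With 3 libraries against 3 the exact two-sided permutation test cannot go below p = 0.1, which is its value for each pair of populations without overlap.

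C1s1, the gene of C1s, the protease that C1r activates (ENSMUSG00000038521, chr6:124530345-124542359), lies 6902 bases from C1ra on the other strand. It was at 34.8, 22.9 and 33.5 CPM in Itga8+ MSCs and at 22.3, 18.1 and 11.6 CPM in BLCs. It was at 568, 562 and 457 CPM in Sca-1+ MSCs and at 516, 541 and 629.6 CPM in CD51+CD140a+ MSCs. The libraries of these latter populations overlapped, and their difference was -0.09 ± 0.286 (log2, edgeR adjusted p = 0.916), while both were above Itga8+ MSCs by more than 4 on the log2 scale (-4.12 ± 0.325 and -4.21 ± 0.327 for Itga8+ MSCs). Of the exon bases of C1s1, 18.4% overlap Gm16567, which was itself at 156 and 168 CPM (mean) in Sca-1+ and CD51+CD140a+ MSCs. The use of strand in counting is not given in the sources used here, so reads of these genes cannot be told apart with certainty.

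Serping1 (ENSMUSG00000023224, chr2:84765387-84775444) encodes C1 inhibitor, the serpin that blocks C1r and C1s. It was at 179.9, 192 and 142 CPM in Itga8+ MSCs and at 83.1, 71.0 and 93.9 CPM in BLCs. It was at 2908, 2795 and 2706 CPM in Sca-1+ MSCs and at 6388, 7741 and 7979 CPM in CD51+CD140a+ MSCs. No 2 populations overlapped and all 6 differences were called, from a log2 fold change of 1.05 ± 0.236 between Itga8+ MSCs and BLCs (edgeR adjusted p = 0.0382) to -6.48 ± 0.296 between BLCs and CD51+CD140a+ MSCs (adjusted p = 5.35e-07). Per kilobase of exon it was the highest member in every population, at 73.6, 35.6, 1206 and 3170.0 CPM per kb (means, in the order Itga8+, Itga8-Alcam+, Sca-1+ and CD51+CD140a+). The difference between Itga8+ MSCs and BLCs was no longer called without Itga8+ replicate 1 (1.01, adjusted p = 0.105), Itga8-Alcam+ replicate 1 (1.07, 0.102) or Itga8-Alcam+ replicate 2 (0.96, 0.111), nor without Itga8+ replicate 2, where it fell below the fold threshold of 2 (0.98, 0.0397), and it was not called in a fit of these populations alone (1.04, 0.358).

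The balance of these genes differed between Sca-1+ and CD51+CD140a+ MSCs. The ratio of C1s1 to C1ra, both in CPM per kb, was 2.16, 2.29 and 2.25 in Sca-1+ MSCs and 0.918, 1.09 and 0.908 in CD51+CD140a+ MSCs, with no overlap (log2 difference 1.21, exact permutation p = 0.1). In Itga8+ MSCs it was 1.65, 1.09 and 1.24 and in BLCs 1.93, 1.07 and 0.727, so all libraries of the Alcam+ sorts lay below those of Sca-1+ MSCs. The ratio of Serping1 to C1s1 was 16.7, 19.3 and 17.1 in CD51+CD140a+ MSCs and 6.89, 6.69 and 7.96 in Sca-1+ MSCs (log2 difference -1.30 for Sca-1+ minus CD51+CD140a+, exact permutation p = 0.1). It was 5.01 to 11.3 in the 6 libraries of the Alcam+ sorts, which overlapped Sca-1+ MSCs but not CD51+CD140a+ MSCs. The ratio of Serping1 to C1ra overlapped between Sca-1+ MSCs (14.9, 15.3 and 17.9) and CD51+CD140a+ MSCs (15.3, 20.9 and 15.5).

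**Figure D2:**
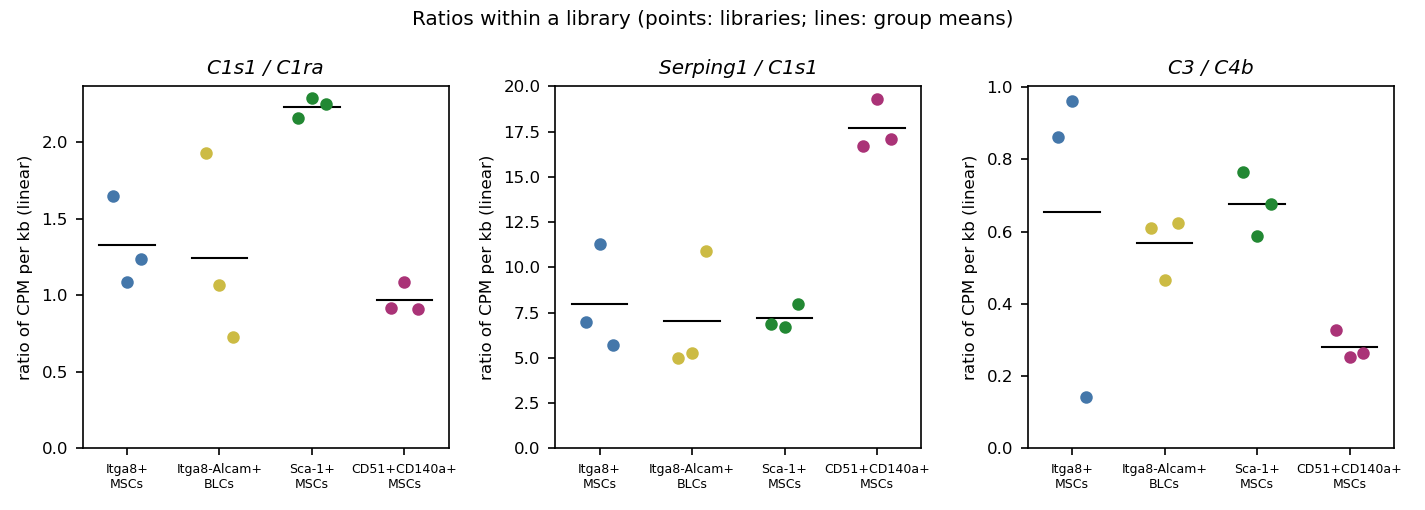
Ratios of CPM per kb of exon within each library, on linear axes, for C1s1 to C1ra, Serping1 to C1s1 and C3 to C4b in the 4 populations; points are libraries and lines are means. Sca-1+ MSCs had C1s1 to C1ra ratios of 2.16 to 2.29, above all other libraries, and CD51+CD140a+ MSCs had Serping1 to C1s1 ratios of 16.7 to 19.3, above all other libraries.

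C4b encodes C4, the substrate of C1s whose large fragment binds to surfaces (ENSMUSG00000073418, chr17:34728380-34743882). It was at 87.5, 15.8 and 387 CPM in Itga8+ MSCs and at 103, 313 and 24.8 CPM in BLCs. In Sca-1+ MSCs it was at 1963, 2218 and 1386 CPM and in CD51+CD140a+ MSCs at 2006, 1619.5 and 2631 CPM. All libraries of the latter populations were above all libraries of the Alcam+ sorts, and the libraries overlapped within each of the pairs. The log2 fold changes of Itga8+ MSCs were -3.50 ± 1.02 against Sca-1+ MSCs (edgeR adjusted p = 0.0382) and -3.67 ± 1.03 against CD51+CD140a+ MSCs (0.0197), and those of BLCs were -3.66 ± 1.03 (0.0263) and -3.83 ± 1.04 (0.016). The lowest values were those of Itga8+ replicate 2 and Itga8-Alcam+ replicate 3, the libraries lowest in long transcripts; without Itga8+ replicate 3 the difference from Sca-1+ MSCs was -5.19 and that from CD51+CD140a+ MSCs -5.32, without Itga8-Alcam+ replicate 2 those of BLCs were -4.90 and -5.03, and without Itga8+ replicate 1 the difference from Sca-1+ MSCs was no longer called (-3.20, 0.111). Of its 50-base words 34.6% are shared with C4a, which had at most 8.48 CPM in any library.

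C2, the protease that joins the C4 fragment in the classical C3 convertase (ENSMUSG00000024371, chr17:34862604-34898265), was high in CD51+CD140a+ MSCs alone among these populations. It was at 117, 137 and 184 CPM there. In Itga8+ MSCs it was at 2.23, 0.571 and 2.37 CPM, in BLCs at 0.548, 1.76 and 2.58 CPM and in Sca-1+ MSCs at 2.71, 3.66 and 1.73 CPM. The last 9 libraries overlapped between populations, and none reached 4 CPM. The log2 fold changes against CD51+CD140a+ MSCs were -6.40 ± 0.682 for Itga8+ MSCs (edgeR adjusted p = 3.98e-05), -6.49 ± 0.685 for BLCs (3.70e-05) and -5.75 ± 0.659 for Sca-1+ MSCs (7.59e-05). The classical substrates thus differed in distribution, with C4b not called different between Sca-1+ and CD51+CD140a+ MSCs (log2 difference -0.17 ± 0.928, edgeR adjusted p = 0.956) and C2 at levels 54.0-fold apart.

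C3 is the component that all pathways cleave (ENSMUSG00000024164, chr17:57203970-57228136). It was at 68.0, 13.8 and 49.7 CPM in Itga8+ MSCs and at 56.6, 132 and 14.0 CPM in BLCs. It was at 1358, 1175 and 848 CPM in Sca-1+ MSCs and at 594, 369 and 625 CPM in CD51+CD140a+ MSCs. The Alcam+ sorts overlapped each other and lay below both other populations, and all Sca-1+ libraries were above all CD51+CD140a+ libraries. Itga8+ MSCs had a log2 fold change of -4.68 ± 0.784 against Sca-1+ MSCs (edgeR adjusted p = 0.00218) and of -3.59 ± 0.745 against CD51+CD140a+ MSCs (0.00383). Those of BLCs were -4.06 ± 0.761 (0.00323) and -2.97 ± 0.724 (0.0092), or -5.03 and -3.91 without Itga8-Alcam+ replicate 2. The difference between Sca-1+ and CD51+CD140a+ MSCs was not called (1.09 ± 0.680, adjusted p = 0.344), but it was in a fit of these populations alone (1.08, 0.00791) and without Itga8+ replicate 2 and Itga8-Alcam+ replicate 3 (1.09, 0.0373). Per kb, the ratio of C3 to C4b was 0.766, 0.587 and 0.677 in Sca-1+ MSCs and 0.328, 0.252 and 0.263 in CD51+CD140a+ MSCs, with no overlap (log2 difference 1.27, exact permutation p = 0.1).

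The proteases of the alternative pathway were each at or below 3 counts in 6 of the 12 libraries. Cfb, the gene of factor B, the protease that forms the alternative convertase with C3b (ENSMUSG00000090231, chr17:34856374-34862518), had 2, 2 and 2 counts in Itga8+ MSCs and 2, 0 and 0 counts in BLCs. It had 16, 25 and 22 counts in Sca-1+ MSCs and 22, 53 and 30 counts in CD51+CD140a+ MSCs, which is 1.06 ± 0.195 CPM and 1.03 ± 0.462 CPM. All libraries of these latter populations were above all libraries of the Alcam+ sorts. Per summed count of the libraries, Sca-1+ MSCs were 10.1 times Itga8+ MSCs (95% exact binomial interval 4.39 to 28.6) and 31.2 times BLCs (8.28 to 263), intervals that cover counting error only, since reads of PCR copies are not separate molecules. The fits called the differences of both Alcam+ sorts (log2 fold change -3.26 ± 0.897 for Itga8+ MSCs against Sca-1+ MSCs, edgeR adjusted p = 0.0297, and -4.76 ± 1.01 for BLCs, 0.0066), as well as those from CD51+CD140a+ MSCs (-3.22 ± 0.892, 0.0186, and -4.71 ± 1.01, 0.0044). Without Itga8-Alcam+ replicate 1, which held both counts, the fits of the BLCs gave -7.67 and -7.58. The exons of Cfb overlap those of the readthrough gene Gm20547 over 79.5% of their length, and C2 lies 86 bases away, so reads common to Cfb and Gm20547 could have been left out by counting.

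Cfd, the gene of factor D (adipsin), the protease that cleaves factor B and is abundant in fat cells (ENSMUSG00000061780, chr10:79890853-79892655), differed widely among libraries of one population. It had 78, 0 and 0 counts in Itga8+ MSCs, 85, 122 and 319 in BLCs, 1, 0 and 1 in Sca-1+ MSCs and 2, 230 and 24 in CD51+CD140a+ MSCs. BLCs were the only population in which all 3 libraries held over 50 counts, at 4.23, 5.65 and 19.1 CPM. They were above Sca-1+ MSCs in all libraries (log2 fold change 7.94 ± 2.31, edgeR adjusted p = 0.0299), by 265.8 times per summed count (95% exact binomial interval 73.2 to 2200.5). This call was lost without Sca-1+ replicate 2 (7.43, 0.104), and the difference was 6.98 without Itga8-Alcam+ replicate 3. The fit also called Sca-1+ MSCs below CD51+CD140a+ MSCs (-5.98 ± 2.25, 0.0957), although the libraries overlapped, and that call was lost in 8 of the 12 fits that left out a library, with -3.39 (0.407) without CD51+CD140a+ replicate 2, and was kept only without one of the Itga8+ libraries or CD51+CD140a+ replicate 1. It was also lost with limma-trend (-2.98, 0.223). Itga8+ MSCs did not overlap BLCs but were not called lower (-2.89 ± 1.63, 0.552), and against CD51+CD140a+ MSCs the difference was -0.93 ± 1.55 (0.67). Both were called without Itga8+ replicate 1 (0.0943 and 0.0419), which left no count in Itga8+ MSCs. The difference of Itga8+ MSCs from Sca-1+ MSCs was 5.05 ± 2.27 (0.146), and it was called without Itga8+ replicate 3 (5.61, 0.0774) but changed sign without Itga8+ replicate 1, which held all 78 counts (-2.87, 0.645). Adipoq, the adipocyte hormone gene, was at 2081, 2311 and 2351 CPM in CD51+CD140a+ MSCs, where Cfd was at 0.0546, 6.59 and 0.773 CPM. Elane, a neutrophil granule gene 2638 bases to the left of Cfd, was at 675, 1486 and 327 CPM in Itga8+ MSCs, 980.1, 501 and 743 CPM in BLCs, 107, 74.7 and 98.7 CPM in Sca-1+ MSCs and 61.2, 156 and 96.1 CPM in CD51+CD140a+ MSCs. No link of Cfd to Adipoq, to Elane or to neutrophil RNA was tested.

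C7, a terminal component that anchors the forming complex in the membrane (ENSMUSG00000079105, chr15:4988762-5063740), was high in Sca-1+ MSCs. It was at 138, 64.8 and 80.6 CPM there. In Itga8+ MSCs it was at 3.76, 1.97 and 3.41 CPM and in BLCs at 0.598, 0.371 and 0 CPM. CD51+CD140a+ MSCs had 0, 0 and 5 counts. Sca-1+ MSCs did not overlap any other population, nor did Itga8+ MSCs, and BLCs overlapped CD51+CD140a+ MSCs. Per summed count, Sca-1+ MSCs were 1908.9 times CD51+CD140a+ MSCs (95% exact binomial interval 817 to 5881), and the fit gave a log2 fold change of 10.73 ± 1.14 (edgeR adjusted p = 4.35e-05). Sca-1+ MSCs were also above Itga8+ MSCs (-4.95 ± 0.835 for Itga8+ MSCs, 0.00228) and BLCs (-8.12 ± 0.994 for the BLCs, 2.25e-04, or -8.90 without Itga8-Alcam+ replicate 1). Itga8+ MSCs were above CD51+CD140a+ MSCs (5.78 ± 1.02, 0.00133). CD51+CD140a+ replicate 3 held all 5 counts, and without it the fitted values against this population, which rest on the prior count, were 9.09 for Itga8+ MSCs and 14.04 for Sca-1+ MSCs.

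The smaller differences of C7 were less firm. Itga8+ MSCs were above BLCs by 3.18 ± 0.856 (edgeR adjusted p = 0.085), a call that was lost in 8 of the 12 fits without 1 library, with log2 fold changes of 2.66 to 3.92, and was kept only without Itga8+ replicate 2 or one of the CD51+CD140a+ libraries. BLCs against CD51+CD140a+ MSCs gave 2.61 ± 1.11 (0.094), from 20 and 5 counts in all, and was also lost in 8 of 12 such fits, with 1.88 without Itga8-Alcam+ replicate 1. It was kept only without Itga8+ replicate 2 or 3, Itga8-Alcam+ replicate 3 or CD51+CD140a+ replicate 3 (5.91 in the last). It was also lost with limma-trend (1.29, 0.196), with library totals alone (2.32, 0.131), with these populations alone (2.55, 0.287) and with the trend with exon length removed (2.35, 0.141).

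Set side by side, the comparisons gave the following counts for the 9 members, where a call is an edgeR adjusted p under 0.1 with a fold change above 2. The comparisons share libraries and are not independent. Between Itga8+ MSCs and BLCs, 2 members were higher in Itga8+ MSCs (Serping1 and C7), as were 1.66% of all genes tested, while 2.16% were lower; 7 members were called in neither direction. The median log2 fold change of the members was 0.63, against 0.08 over all genes tested.

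Against Sca-1+ MSCs, 7 members were lower in Itga8+ MSCs (all but C2 and Cfd), where 8.89% of all genes were lower and 12.9% higher. In BLCs the same 7 genes were lower and Cfd was higher, where 11.9% of all genes were lower and 14.5% higher. The median log2 fold changes of the members were -3.50 and -4.06, against 0.16 and 0.12 over all genes. C2 was at a low level in each of these populations.

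Against CD51+CD140a+ MSCs, 7 members were lower in Itga8+ MSCs (all but Cfd and C7) and C7 was higher, where 14.3% of all genes were lower and 21.2% higher. BLCs gave the same 7 lower and C7 higher, where 14.9% were lower and 20.4% higher. The medians of the members were -3.67 and -4.71, against 0.18 and 0.09 over all genes. Sca-1+ MSCs were lower than CD51+CD140a+ MSCs in 4 members (C1ra, Serping1, C2 and Cfd), where 9.3% of all genes were lower, and higher in C7, where 11.2% were higher. The median of the members was -0.17 in that comparison, against -0.003 over all genes.

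**Figure D3:**
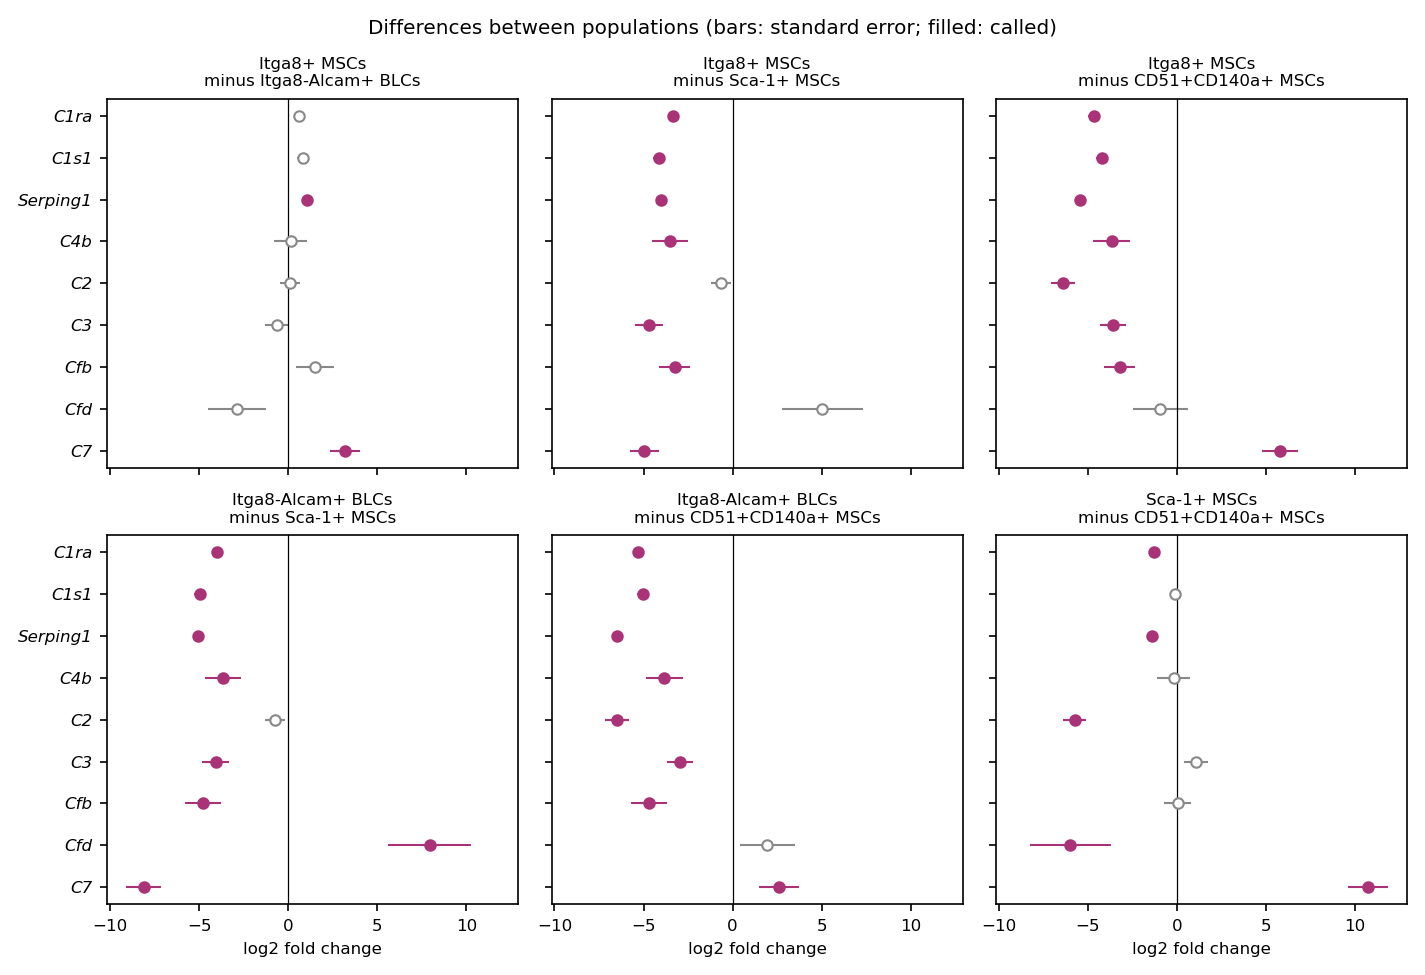
Fitted log2 fold changes of the 9 members in the 6 comparisons, with standard errors as bars; filled points passed an adjusted p under 0.1 and a fold change above 2, and open points did not. In the 4 comparisons of an Alcam+ sort with Sca-1+ or CD51+CD140a+ MSCs, C1ra, C1s1, Serping1, C4b, C3 and Cfb lay between -2.97 and -6.48, while Cfd and C7 took both signs.

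The other complement genes were taken from lists of 42 genes, of which 33 were tested. Between Itga8+ MSCs and BLCs 2 of the 33 were called, both lower in Itga8+ MSCs (2.16% of all genes tested were lower and 1.66% higher). Against Sca-1+ MSCs 8 were higher and 5 lower in Itga8+ MSCs (12.9% and 8.89% of all genes), and 7 higher and 6 lower in BLCs (14.5% and 11.9%). The 8 in Itga8+ MSCs included C1qa, C1qb, C1qc and Fcna, whose counts lay almost wholly in Itga8+ replicate 2, the library with the highest myeloid markers, whose part was not tested. The 8 became 4 without that library, 5 without Sca-1+ replicate 1, 2 without Sca-1+ replicate 2 or with only these populations fitted, and 3 without Sca-1+ replicate 3, while the lower genes numbered 5 in each of these fits. Against CD51+CD140a+ MSCs 5 were higher and 10 lower in Itga8+ MSCs (21.2% and 14.3%), and 6 higher and 9 lower in BLCs (20.4% and 14.9%). Sca-1+ MSCs were higher than CD51+CD140a+ MSCs in 3 and lower in 5 (11.2% and 9.3%), the 5 becoming 9 with only these populations fitted. Single libraries also moved other counts by more than 1.5 times. The 7 higher in BLCs than in Sca-1+ MSCs became 4 without BLC replicate 1 and 3 without BLC replicate 2 or Sca-1+ replicate 2 or 3. The 5 higher in Itga8+ than in CD51+CD140a+ MSCs became 8 without Itga8+ replicate 1 and 9 without replicate 3. The 9 lower in BLCs than in CD51+CD140a+ MSCs became 5 without BLC replicate 3 or CD51+CD140a+ replicate 1 or 3. Over the 33 genes, the median log2 fold changes lay between -0.19 and 0.23.

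Recognition molecules were split between the populations. Colec11, a soluble lectin that starts the lectin pathway, was at 17.5, 16.7 and 24.3 CPM in CD51+CD140a+ MSCs and at most 0.289 CPM in any other library (log2 fold change -8.42 ± 0.988 for Sca-1+ MSCs, edgeR adjusted p = 9e-05). Mbl1, a mannose-binding lectin, was at 4.67, 8.80 and 7.51 CPM in CD51+CD140a+ MSCs and had no count in Sca-1+ MSCs or BLCs, at least 45.7-fold and 44.8-fold higher on a floor of 3 counts per library. Colec10, the lectin that pairs with Colec11, was instead at 7.97, 13.5 and 11.8 CPM in Sca-1+ MSCs and had no count in CD51+CD140a+ MSCs, at least 125.7-fold higher. Colec11 and Colec10 were thus high in different populations. Masp1, a protease of the lectin pathway, had no count in CD51+CD140a+ MSCs and was at 1.72, 1.93 and 2.11 CPM in Sca-1+ MSCs, at least 21.8-fold higher. In Itga8+ MSCs it was at 2.37, 0.208 and 2.72 CPM, which was not called different from Sca-1+ MSCs (-0.12 ± 0.940, edgeR adjusted p = 0.949) and was at least 20.0-fold above CD51+CD140a+ MSCs. C1qb, a subunit of C1q, which macrophages make, was at 25.2 CPM in Itga8+ replicate 2, the library with the highest myeloid markers, and at most 2.27 CPM in any other.

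Among terminal components, C6 and C7 differed in opposite directions between the Sca-1+ and the CD51+CD140a+ sort, and both were low in the Alcam+ sorts. C6, which binds just before C7, was at 153, 146 and 142 CPM in CD51+CD140a+ MSCs and at 0.364 to 2.81 CPM in the other 9 libraries. It was lower in Sca-1+ MSCs by -6.60 ± 0.686 (log2, edgeR adjusted p = 3.82e-05), the comparison in which C7 was higher by 10.73. Hc, the gene of C5, had 5 counts, all in Itga8+ MSCs, and C8a and C8b had none.

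Regulators other than Serping1 differed in their own ways. Clu, clusterin, which inhibits the terminal complex, was highest in Sca-1+ MSCs (3006, 3362 and 3787 CPM) and was not called different from CD51+CD140a+ MSCs (log2 fold change 0.80 ± 0.427, edgeR adjusted p = 0.259). Cd55, the membrane protein that dissociates C3 convertases, was at 363, 344 and 353 CPM in Sca-1+ MSCs and at 6.88 to 16.9 CPM in the other 9 libraries (5.01 ± 0.373 against CD51+CD140a+ MSCs, 3.57e-06). Cd59a, the membrane inhibitor of the terminal complex, was highest in BLCs at 37.6, 36.5 and 94.1 CPM, with log2 fold changes of 2.87 ± 0.596 against Sca-1+ MSCs (0.00584), 3.80 ± 0.621 against CD51+CD140a+ MSCs (7.96e-04) and -2.10 ± 0.578 for Itga8+ MSCs against BLCs (0.0926). Cr1l, a membrane regulator of C3 convertases, was at 45.8 to 143 CPM in the 12 libraries and was not called in any comparison.

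**Figure D4:**
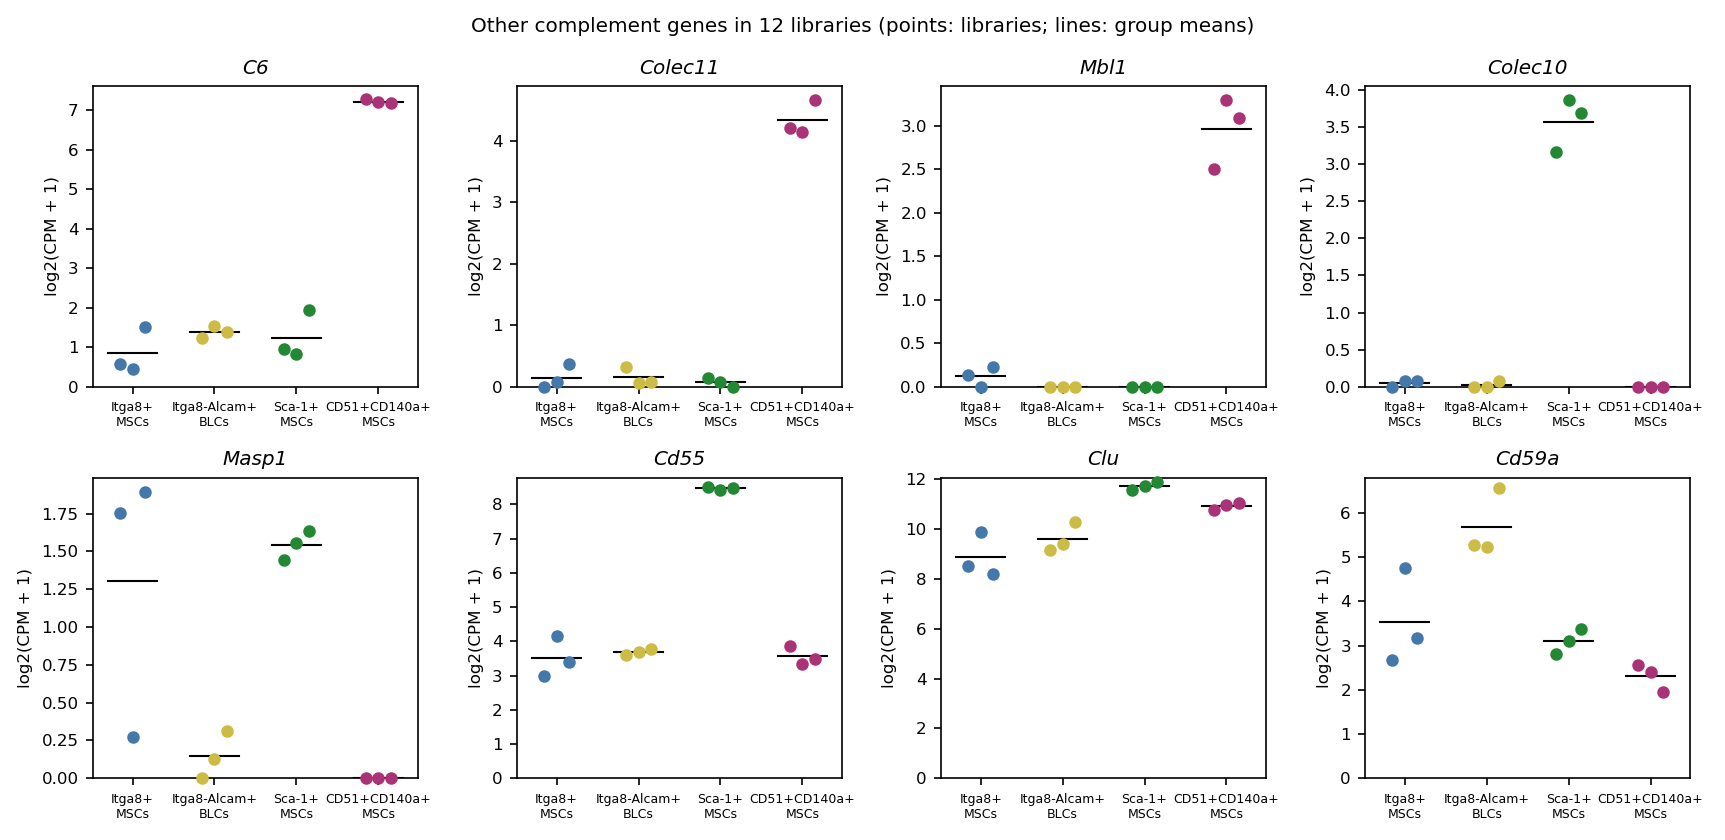
Level of 8 other complement genes, as log2(CPM + 1), in the 12 libraries; points are libraries, lines are means of the 3 log2 values, and the vertical scale differs between panels. C6, Colec11 and Mbl1 were high in CD51+CD140a+ MSCs, Colec10 and Cd55 in Sca-1+ MSCs and Cd59a in BLCs, while Clu was highest in Sca-1+ MSCs at 3006 to 3787 CPM.

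Receptors and proteins of myeloid cells were measured as well. C5ar1, the receptor of the C5a fragment, was at 4.74 to 21.5 CPM in the Alcam+ sorts and at 1.83 to 9.63 CPM in the other 6 libraries. Itgb2, the chain shared by the leukocyte complement receptors, was at 21.3 to 79.2 CPM in the Alcam+ sorts and at 5.46 to 32.8 CPM elsewhere. Fcnb, a ficolin of neutrophils, was at 55.0 to 195 CPM in the Alcam+ sorts and 7.49 to 33.9 CPM elsewhere, and Cfp, properdin, which stabilises the alternative convertase, was at 5.604 to 73.0 CPM and 2.61 to 9.74 CPM. Fcnb and Cfp were called higher in both Alcam+ sorts than in Sca-1+ or CD51+CD140a+ MSCs. C5ar1 was called only against Sca-1+ MSCs, and its differences from CD51+CD140a+ MSCs were 0.99 ± 0.546 (log2, edgeR adjusted p = 0.183) for Itga8+ MSCs and 0.61 ± 0.543 (0.418) for BLCs. Itgb2 was called in all but the comparison of Itga8+ with Sca-1+ MSCs (1.29 ± 0.578, 0.147) among these 4 comparisons. The summed myeloid and lymphoid markers given above were also higher in most Alcam+ libraries, and their part was not tested. Cd93, a surface lectin once described as a C1q receptor, was instead higher in CD51+CD140a+ MSCs, at 15.8, 10.6 and 12.9 CPM against 0.751 to 6.18 CPM elsewhere (-2.63 ± 0.667 for Sca-1+ MSCs, edgeR adjusted p = 0.0165).

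The genes most like each member were sought outside the complement lists, by the mean absolute difference of centred log2(CPM + 1) over the 12 libraries. The nearest to C1ra was Enpp3 (difference 0.22), a surface phosphodiesterase at 45.3 CPM in Sca-1+ MSCs and 131 CPM in CD51+CD140a+ MSCs, and Enpp3 was also the nearest to Serping1 (0.45). The nearest to C1s1 was its overlapping neighbour Gm16567 (0.14), followed by Enpep (0.38), an aminopeptidase gene. The nearest to C4b was Sned1 (0.35) and to C3 Man1a (0.47).

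For C2 it was Vcam1 (0.28), the adhesion molecule of marrow stroma, which was at 3947 CPM in CD51+CD140a+ MSCs and at 51.8 to 92.0 CPM (means) in the other populations. For C7 it was Scg3 (0.30), at 75.3 CPM in Sca-1+ MSCs, with AW551984 (0.30) and Dkk2 (0.41), a Wnt antagonist gene, next. Cfd had no close gene, the nearest being Slc25a10 (0.63) and Pth1r (0.63), the parathyroid hormone receptor of osteoblasts. Inpp5k (0.15) and Atp6v1b2 (0.15) were near to Cfb, but at 1.52 CPM or less Cfb varied little on this scale.

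The chromosomal neighbours of members did not share one pattern. Tnxb, which encodes a tenascin and lies 8565 bases from C4b, was at 218, 311 and 116 CPM in Sca-1+ MSCs and at most 0.0287 CPM in CD51+CD140a+ MSCs, where C4b was at 1619.5 to 2631 CPM. Ehmt2, 204 bases from C2, was at 12.5 to 24.1 CPM in CD51+CD140a+ MSCs and at 7.58 to 28.0 CPM in the other libraries. C1rl, 1762 bases from C1ra, was higher in Sca-1+ MSCs (17.8, 19.6 and 19.7 CPM) and CD51+CD140a+ MSCs (16.3, 16.8 and 19.7 CPM) than in the Alcam+ sorts (3.76 to 10.6 CPM), with log2 fold changes of -1.43 to -1.73 for the Alcam+ sorts, all 4 called.

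Near-identical copies could have split the reads of 3 members. Only 49.2% of the 50-base words of C1ra, 64.9% of those of C1s1 and 65.4% of those of C4b are found in no other gene. The copies held few reads, at most 0.946 CPM for C1rb and 0.975 CPM for C1s2. When the counts of copies and overlapping genes were added to their members, the same number of members was called in each of the 6 comparisons. Reads common to a member and its copy or overlapping gene may have been counted for neither. This sum therefore cannot show whether members lost reads. Of the words of C2 38.7% and of those of Cfb 73.0% are also in Gm20547, which had no count in the files. All words of C3, C7, Cfd and Serping1 are their own.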

How the data were processed

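Full-length cDNA was made from the sorted cells with SMART-Seq v4, tagged with Nextera XT and sequenced on a NextSeq instrument. The authors deposited raw counts of reads per Ensembl gene, 1 file per library. Per the labels, reads went through FastQC 0.11.7, Trimmomatic 0.38, HISAT2 2.1.0, SAMtools 1.9 and featureCounts 1.6.3 against mm10, whereas the methods of the study name TopHat with Bowtie2; the annotation release and use of strand are not given in the sources used here. Symbols and positions came from GENCODE M21, in which 259 of the 49585 identifiers have no entry.

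Counts were tested with the quasi-likelihood F-test of edgeR 4.0.16 (R 4.3.3) with TMM scaling, all 12 libraries in 1 fit and Benjamini-Hochberg adjustment over the 18648 genes that reached 0.5 CPM in 1 library or more. Calls needed an adjusted p under 0.1 and a fold change above 2. The test was checked on simulated counts, with changes set only in genes of at least 5 CPM and the same spread in all populations. That check does not cover genes at lower levels, such as Cfb, or sorts that differ in spread. Single ratios were compared by the two-sided exact permutation test. Totals of 17580677 to 31332475 counts put 3 counts at 0.082 to 0.18 CPM. Alternatives used DESeq2 1.42.0, limma 3.58.1, other scalings, filters, thresholds and sample sets, the replicate number as a block, and each library left out. Adding copies, leaving out 2 libraries low in long transcripts and removing the trend with exon length were chosen after seeing the data. Members and lists were chosen with earlier results of these data known. The text names all members, other complement genes of at least 10 CPM in a group mean or with the largest called changes, the genes of nearest pattern among those of at least 5 CPM, and neighbouring genes. Some genes that this rule would name are not reported here.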

Additional observations from a re-analysis of the deposited data

How the results depend on the processing

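Over 54 pairs of member and comparison and 24 alternatives, 1228 of 1295 values kept their direction and side of the threshold, 44 lost and 8 gained a call, and 15 changed sign. Of 38 called pairs, 32 were called under every alternative and 0 changed sign. The 6 others were Serping1 and C7 between Itga8+ MSCs and BLCs, C4b between Itga8+ and Sca-1+ MSCs, Cfd between BLCs and Sca-1+ MSCs, C7 between BLCs and CD51+CD140a+ MSCs, and Cfd between Sca-1+ and CD51+CD140a+ MSCs. With the replicate block the last 2 were 2.59 (adjusted p = 0.14) and -6.04 (0.195), and both were also lost with limma-trend and at an adjusted p under 0.05.

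Between Itga8+ MSCs and BLCs the count of members called was 2, against 1 at an adjusted p under 0.05, 0 with only these populations in the fit, 0 with the replicate block, and 0 to 2 with 1 library left out. The 2 other complement genes called there became 1 at 0.05, 4 with DESeq2, 4 with limma-trend, 1 with RLE size factors, 1 with only these populations, 1 with the replicate block and 1 to 4 with a library left out. For Itga8+ against Sca-1+ MSCs, 13 such genes became 7 with only these populations, 8 with the replicate block and 7 to 15 with a library left out, and for BLCs against Sca-1+ MSCs 13 became 8 to 14. The cause was not tested.

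No value that changed sign had been called. C4b between Itga8+ MSCs and BLCs (0.15) was -0.19 with limma-trend and -1.49 to 1.38 with a library left out, and Cfb between Sca-1+ and CD51+CD140a+ MSCs (0.05) was -0.09 with library totals alone and -0.23 to 0.44. With a library left out, C2 (-0.31 to 0.59) and C3 (-1.09 to 0.33) changed sign between Itga8+ MSCs and BLCs, Cfd between Itga8+ and Sca-1+ MSCs (-2.87 to 5.63) and between Itga8+ and CD51+CD140a+ MSCs (-8.85 to 1.65), and C1s1 (-0.14 to 0.01) and C4b (-0.32 to 0.03) between Sca-1+ and CD51+CD140a+ MSCs.

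Whether libraries of equal replicate number shared an animal or a day is not stated. Of 18 correlations of deviations between such libraries, 5 exceeded 0.1 (range -0.74 to 0.34), and 5 of 12 libraries correlated best with their own number. The deviations also hold the shift in transcript length of the Alcam+ sorts, so this check cannot decide whether libraries were paired. Depth limits Cfb, Cfd and low levels of C7, where few counts stand behind a fold change.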

Other observations

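Genes that accompany complement in acute-phase and innate responses were described from a list of which 12 were tested. Of these, 7 were lower in Sca-1+ than in CD51+CD140a+ MSCs and 1 was higher, where 9.3% of all genes tested were lower and 11.2% higher. Both Alcam+ sorts had 6 lower and 3 higher against CD51+CD140a+ MSCs (14.3% and 21.2% of all genes for Itga8+ MSCs, 14.9% and 20.4% for BLCs). Against Sca-1+ MSCs, Itga8+ MSCs had 4 lower and 5 higher (8.89% and 12.9%) and BLCs 5 lower and 4 higher (11.9% and 14.5%), and Itga8+ MSCs and BLCs were called different in neither direction. Hp, haptoglobin, which binds free haemoglobin, was at 5051, 6309.8 and 5772 CPM in CD51+CD140a+ MSCs and at 19.2 to 56.4 CPM in Sca-1+ MSCs (log2 fold change -7.20 ± 0.636, edgeR adjusted p = 1.09e-05). Cp, the ferroxidase ceruloplasmin, was at 1824, 1767 and 2099 CPM against 123, 137 and 135 CPM (-3.85 ± 0.413, 4.78e-05). Ptx3, a pattern recognition protein that binds C1q, was at 438, 419.7 and 601.5 CPM against 78.5, 95.8 and 61.2 CPM (-2.63 ± 0.410, 6.97e-04). Lbp, which binds lipopolysaccharide, overlapped between these populations (0.10 ± 0.247, 0.868). Lcn2, a neutrophil granule and acute-phase gene, went the other way and was at 40.6 to 318 CPM in the Alcam+ sorts against 4.73 to 12.5 CPM in CD51+CD140a+ MSCs.

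Of 21 transcription factors and receptors known to regulate complement genes, 11 were lower in Sca-1+ than in CD51+CD140a+ MSCs, where 9.3% of all genes tested were lower. Against the same population, 10 were lower in Itga8+ MSCs (14.3% of all genes) and 11 in BLCs (14.9%). Against Sca-1+ MSCs, 2 were higher and 2 lower in Itga8+ MSCs (12.9% and 8.89% of all genes) and 3 higher and 3 lower in BLCs (14.5% and 11.9%), shares near those of all genes, and Itga8+ MSCs and BLCs were called different in neither direction. Irf1, an interferon-responsive factor, was at 921, 1172 and 1602 CPM in CD51+CD140a+ MSCs and at 100.4 to 308 CPM in the other 9 libraries. Cebpa, a C/EBP factor of adipocytes, was at 46.9, 42.6 and 43.2 CPM against 0.208 to 3.85 CPM. Pparg, the nuclear receptor of the same lineage, was at 191, 165 and 206 CPM against 1.67 to 7.87 CPM. These lists were chosen with results of these data known, and no link between them and the complement genes was tested.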
